A study of Homo sapiens with 6 samples.

Results

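The hemicentin and fibulin genes HMCN1, FBLN1, FBLN2, FBLN5, FBLN7, EFEMP1 and EFEMP2 were described in U87 cells sorted by how much of a cyclic peptide they had taken up. The 7 genes were chosen by symbol from the 25680 gene symbols of the deposited count files, all 7 were present, and 6 passed the filter on low counts that left 14598 genes for testing. FBLN7 did not pass it. U87 is an established human glioblastoma cell line, labelled wild type here. Every culture had received the peptide EPP6 carrying the fluorescent dye rhodamine at 500 nM for 1 h before the cells were detached and sorted. The 30% of cells with the brightest rhodamine signal are called high uptake and the 30% with the dimmest signal low uptake. Each group had 3 libraries, which the titles number 2, 3 and 4. Both groups came from peptide-treated cells, so the comparison is between bright and dim cells and has no untreated level beside it.

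Fibulins are secreted glycoproteins built from rows of calcium-binding EGF modules that end in a fibulin-type module. They link basement membranes, elastic fibres, fibronectin and proteoglycans to one another. Hemicentin-1, the product of HMCN1 (also called FBLN6), is a far larger relative with a long row of immunoglobulin modules, and is known for joining adjacent basement membranes. EFEMP2 (FBLN4) and FBLN5 are needed for elastic fibre assembly and bring lysyl oxidases to elastin. EFEMP1 (FBLN3) is known in gliomas as a secreted protein that activates Notch signalling, and FBLN1 and FBLN2 bind fibronectin and basement membrane proteins.

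The start regions of 2 members are shown because EFEMP2 was the most abundant family member and FBLN1 the most abundant one whose level was lower in high uptake. Both come from RefSeq on build GRCh38.p14, in which 5 of the 7 members had an entry (not HMCN1 or EFEMP1), and each gives the 250 bases before the annotated start, 5′ to 3′ on the gene's strand. EFEMP2 lies on the minus strand at chr11:65872801-65873050 and FBLN1 on the plus strand at chr22:45502633-45502882. Capitals mark matches to GGGCGG, the GC box, searched on both strands with overlapping matches counted separately.
EFEMP2: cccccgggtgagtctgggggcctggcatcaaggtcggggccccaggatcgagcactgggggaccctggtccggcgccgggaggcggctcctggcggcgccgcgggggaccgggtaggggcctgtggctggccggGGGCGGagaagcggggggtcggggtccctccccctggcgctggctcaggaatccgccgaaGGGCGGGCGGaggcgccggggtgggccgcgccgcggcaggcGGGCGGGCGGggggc
FBLN1: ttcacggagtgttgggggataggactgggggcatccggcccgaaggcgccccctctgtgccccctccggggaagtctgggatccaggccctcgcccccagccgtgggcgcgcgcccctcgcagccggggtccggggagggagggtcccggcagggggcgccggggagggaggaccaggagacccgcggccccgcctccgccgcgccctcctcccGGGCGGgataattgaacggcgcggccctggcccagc
The EFEMP2 window held 5 matches and the FBLN1 window 1. Of the members not shown, the FBLN2 windows held 5 and 0, the FBLN5 windows 1 and 3, and the FBLN7 window 2. At least 1 match stood in 42.6% of all 35116 windows of this length, and at least 5 in 4.15%. G and C made up 81.6% of the EFEMP2 window and 77.6% of the FBLN1 window, against a median of 58.0% over all windows. Each of these windows also held 1 match to CAGAC, the SMAD box, which 38.0% of all windows hold at least once, and neither held TATAAA (10.7% of all windows), TGANTCA, the AP-1 site (6.57%), or GGAATG, the TEAD site (11.9%). These motifs were searched in the same way, and matches describe the letters only.

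Total counts per library ran from 13712263 in high replicate 3 to 40742857 in high replicate 2. In the second principal component of log2 CPM (read counts scaled to library size), which held 31.5% of the variance, both libraries numbered 2 stood at 1 end (18.6 and 23.8) and the other 4 between -23.1 and -4.99. Nothing in the labels says that replicates were separate cultures, and p-values here measure only how far these libraries vary, which may be technical variation. Of markers for mesenchymal glioma cells, all 5 were expressed, with a summed level of 14300 to 16750 TPM, the authors' length-scaled unit over the 6 libraries. VIM alone held 11290 to 12620 TPM, most of that sum. The glial and neural stem list was low in sum, at 9.39 to 12.7 TPM over 6 genes. OLIG1 had no count in any library and SOX2 had 1 count in all. Most of the sum came from NES (8.28 to 10.9 TPM, 272 to 756 counts per library), and OLIG2 had 13 to 54 counts per library. The 5 immune markers summed to 307.6 to 369.9 TPM, nearly all of it from CD68, a lysosomal protein that is not limited to immune cells (307.4 to 369.3 TPM), while PTPRC had 0 to 6 counts per library and AIF1 none. The 4 epithelial markers summed to 1.65 to 1.87 TPM, mostly from EPCAM (15 to 47 counts per library), and CDH1, KRT5 and KRT14 had 0 to 4 counts each.

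Family members differed widely in level, compared here in TPM. EFEMP2 was highest in every library, followed by EFEMP1 and, below it, FBLN1 and HMCN1. Mean levels in high uptake were 85.2 TPM for EFEMP2, 12.8 for EFEMP1, 5.40 for FBLN1 and 3.72 for HMCN1, and FBLN5, FBLN2 and FBLN7 each averaged under 1 TPM. In low uptake the corresponding means were 63.2, 9.89, 6.40 and 1.32 TPM. EFEMP2 lay at the 81.3rd percentile of the tested genes by mean TPM and HMCN1 at the 17.4th. The step from EFEMP1 to FBLN1 was clear of the spread in both groups. The step from FBLN1 to HMCN1 was 4.84-fold and clear of the spread in low uptake, but in high uptake the ranges overlapped, and in high replicate 2 HMCN1 (4.29 TPM) stood above FBLN1 (4.15 TPM). Among the 3 lowest genes, FBLN5 and FBLN2 overlapped in low uptake and FBLN2 and FBLN7 in high uptake.

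**Figure D1:**
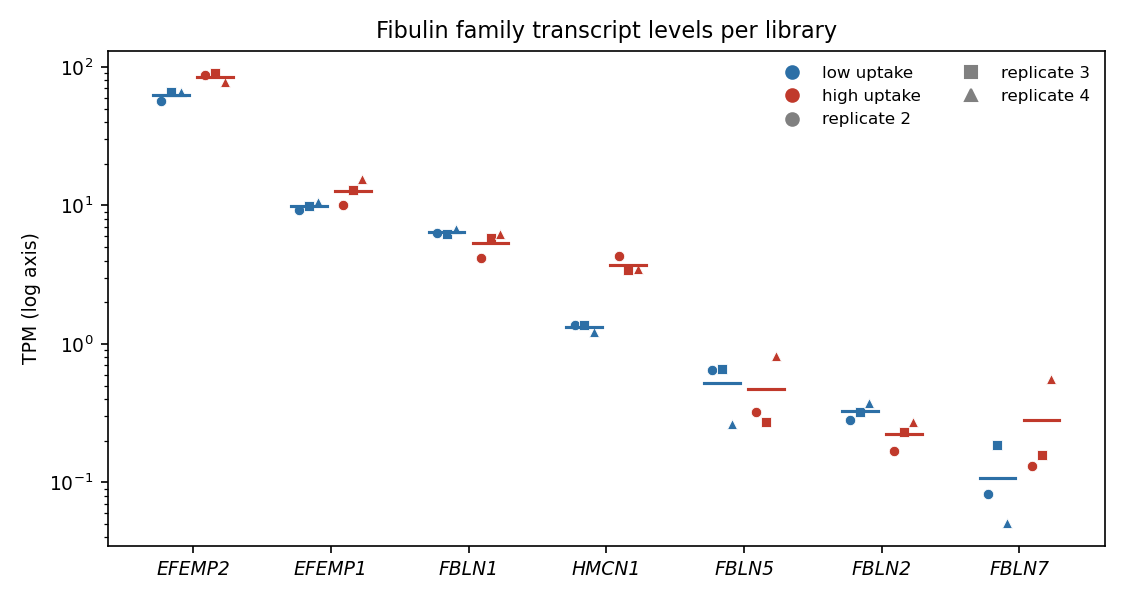
TPM of each family member (log axis) in the 3 low-uptake (blue) and 3 high-uptake (red) libraries, with marker shape for the replicate number and a line at each group's mean. HMCN1 is the member with the widest gap between the groups, at 3.43 to 4.29 TPM in high uptake against 1.22 to 1.38 TPM in low uptake.

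HMCN1 rose with uptake, and it was the only member to pass the threshold in edgeR's quasi-likelihood test. It stood at 31.8, 25.8 and 25.2 CPM in high replicates 2, 3 and 4 and at 10.3, 10.5 and 9.34 CPM in low replicates 2, 3 and 4. Every high-uptake library thus stood above every low-uptake library, with a wide gap and little spread in low uptake. The log2 fold change was 1.46 (SE 0.118, 95% interval 1.20 to 1.72, adjusted p = 1.53e-04 in edgeR), or 2.75-fold. Over all 14598 tested genes, 3.03% passed as higher and 13.0% had all high-uptake values above all low-uptake values. In high uptake the summed level of 6 fibroblast and mural cell markers was also higher (59.3 to 69.2 TPM against 35.9 to 44.1 TPM). ACTA2 (27.4 against 19.1 TPM on average), PDGFRB (22.4 against 12.3) and LUM (12.8 against 7.11) held most of it. RGS5 alone of the 6 was lower in high uptake (log2 -0.19, groups overlapping). The part of these markers in the result was not tested. In RNA from pooled cells, more cells expressing a gene and more RNA per cell cannot be told apart.

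HMCN1 has one of the longest gene models in the files, at 18212 bases the 32nd longest of the tested genes, and long genes as a class were higher in high uptake. The 456 tested genes of at least 10000 bases had a median log2 fold change of 0.14 and 9.65% of them passed as higher, against a median of -0.07 and 1.39% for the 3889 genes under 2000 bases. Among those 456 genes HMCN1 had the 4th largest log2 fold change. After correcting each library for its trend over gene length, HMCN1 stood at a log2 fold change of 1.27 (adjusted p = 5.26e-04 in edgeR). The second hemicentin gene, HMCN2, with a model of 13997 bases, stood at 7.75, 12.0 and 8.55 CPM in high uptake and 5.12, 6.50 and 7.38 CPM in low uptake. Its groups did not overlap, and its log2 fold change of 0.55 (SE 0.182, 95% interval 0.16 to 0.95) did not pass the threshold (adjusted p = 0.121 in edgeR). With the length trend removed HMCN2 stood at 0.40 (adjusted p = 0.354 in edgeR). With a term for the replicate number (a replicate block) added to that fit it passed, at 0.40 (adjusted p = 0.0293, 2810 genes called). It also passed in edgeR with both libraries numbered 2 left out (0.51, adjusted p = 0.0400, 5.51% of all genes called). The same held without a filter on low counts (0.56, 0.0354, 4.31% called) and after correction for GC content (0.55, 0.00791, 18.4% called). With any 1 library left out it did not pass (0.0809 to 0.249).

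**Figure D2:**
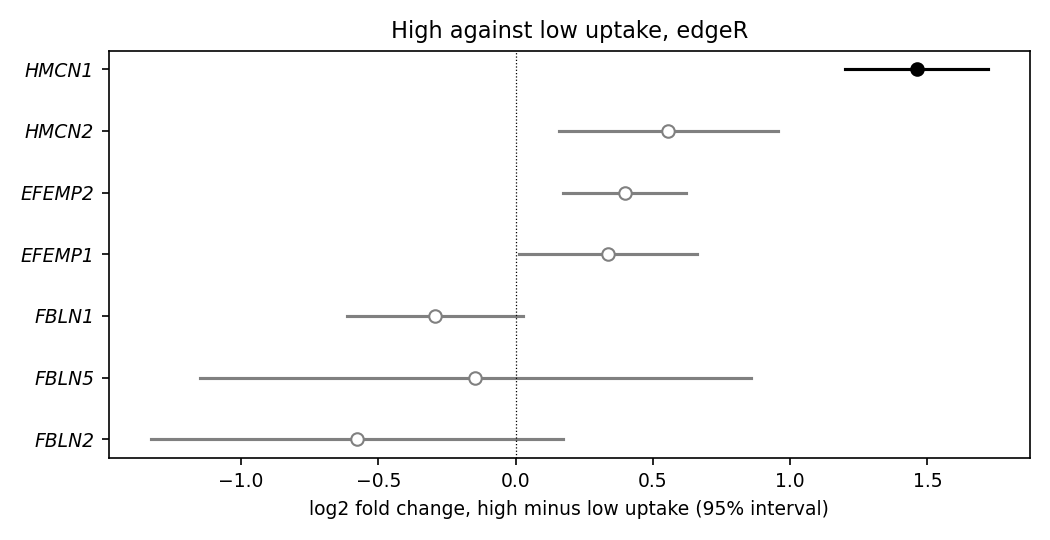
Log2 fold change of high over low uptake for the 6 tested members and HMCN2, with 95% intervals from edgeR. The filled point, HMCN1 at 1.46, passed an adjusted p of 0.05, and the open points did not.

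EFEMP2, which encodes the elastic fibre assembly protein fibulin-4, was higher in each high-uptake library but missed the threshold. Its level was 74.0, 77.0 and 64.2 CPM in high replicates 2, 3 and 4 and 48.4, 57.4 and 57.6 CPM in low replicates 2, 3 and 4. The groups did not overlap, and the lowest low-uptake value belonged to replicate 2. The log2 fold change was 0.40 (SE 0.102, 95% interval 0.17 to 0.62, adjusted p = 0.0528 in edgeR), a 1.32-fold difference. DESeq2 placed EFEMP2 past the threshold (adjusted p = 0.0104), as it did 5.93% of all genes it tested. So did edgeR without a filter on low counts (adjusted p = 0.0127, 4.31% of all genes called) and after correction for GC content (0.00126, 18.4% called) or gene length (0.0443, 465 genes called). EFEMP2 also passed in edgeR with a replicate block (adjusted p = 1.56e-04, 3176 genes called). The same held with the block and the length trend removed together (2.25e-04, 2810 called). Of 18 alternatives 12 left EFEMP2 short of the threshold. Among these were limma (0.0516), edgeR with any 1 library left out (0.0581 to 0.135) and edgeR without both libraries numbered 2 (0.0883). Only 11 exon bases of EFEMP2, 0.204% of its annotated exons, overlap MUS81 on the opposite strand in GENCODE 29.

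EFEMP1, the glioma-secreted fibulin-3 gene, did not pass and its groups overlapped. It stood at 12.6, 16.5 and 19.2 CPM in high replicates 2, 3 and 4, with replicate 2 inside the low-uptake range of 11.7 to 13.7 CPM. Its log2 fold change was 0.34 (SE 0.148, 95% interval 0.01 to 0.66, adjusted p = 0.255 in edgeR). The estimate turned on single libraries, at 0.18 without high replicate 4 and 0.50 without high replicate 2. With both libraries numbered 2 left out, EFEMP1 passed, at 0.44 (adjusted p = 0.0197 in edgeR), where 5.51% of all tested genes did. It also passed with a replicate block, at 0.31 (adjusted p = 0.016 in edgeR, 3176 genes called). The same held with the block and the length trend removed together (0.31, adjusted p = 0.0208, 2810 called).

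FBLN1 and FBLN2, the fibulins that bind fibronectin and basement membrane proteins, had values on the other side. FBLN1 stood at 8.20, 11.7 and 12.1 CPM in high replicates 2, 3 and 4 and at 12.5, 12.6 and 13.7 CPM in low replicates 2, 3 and 4. Its groups did not overlap in CPM, though high replicate 4 and low replicate 2 were nearly level, and in TPM high replicate 4 (6.23) stood above low replicate 3 (6.17). The log2 fold change was -0.29 (SE 0.147, 95% interval -0.62 to 0.03, adjusted p = 0.320 in edgeR), and it was -0.12 without high replicate 2, the lowest library. With a replicate block FBLN1 passed as lower in edgeR (-0.32, adjusted p = 0.0247, 3176 genes called). It also passed with the block and the length trend removed together (-0.36, adjusted p = 0.0173, 2810 genes called). These counts sum all splice forms, of which GENCODE 29 lists 18 for FBLN1, so forms with different ends are not resolved.

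FBLN2 rested on few reads. Its counts were 13, 6 and 17 in high uptake (replicates 2, 3 and 4) against 21, 14 and 15 in low uptake. Scaled by library size, all 3 high-uptake values (0.322 to 0.510 CPM) lay below all 3 low-uptake values (0.543 to 0.733 CPM). Its log2 fold change of -0.58 had an SE of 0.343 (95% interval -1.33 to 0.17, adjusted p = 0.407 in edgeR). Of all tested genes, 11.4% had every high-uptake value below every low-uptake value. The interval for FBLN2, 0.398-fold to 1.13-fold, includes no difference as well as a lower level in high uptake.

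FBLN5 and FBLN7 were barely detected. FBLN5, the integrin-binding elastic fibre protein fibulin-5, had counts of 14, 4 and 29 in high uptake (replicates 2, 3 and 4) against 27, 16 and 6 in low uptake. High replicate 4 was the highest of the 6 after scaling (0.870 CPM) and low replicate 4 the lowest (0.293 CPM), so the groups overlapped throughout. The log2 fold change was -0.15 with an SE of 0.458 and a 95% interval from -1.15 to 0.86 (adjusted p = 0.912 in edgeR), and its sign depended on the libraries used. FBLN7, an adhesion protein known from developing teeth, had counts of 5, 2 and 17 in high uptake (replicates 2, 3 and 4) against 3, 4 and 1 in low uptake. Its 17 counts in high replicate 4 make up most of its high-uptake total. Fitted without a filter, FBLN7 had a log2 fold change of 1.42 (95% interval -0.05 to 2.89, adjusted p = 0.371 in edgeR).

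The 6 tested members thus gave 1 call, where 4.29% of all tested genes passed in either direction, and 3 of the 6 (HMCN1, EFEMP1 and EFEMP2) had an unadjusted p under 0.05, as did 18.4% of all tested genes. Their median log2 fold change was 0.09 against -0.0038 over all tested genes. Groups did not overlap for 4 of the 6, HMCN1 and EFEMP2 higher and FBLN1 and FBLN2 lower, while this held for 24.4% of all tested genes. The authors' deposited table, a list of 2305 gene symbols without values, holds HMCN1, EFEMP1 and EFEMP2 and none of the other 4. That list covers 15.8% of the tested genes. Its name gives a minimum count of 10 and a p-value of 0.05, and does not say whether p was adjusted. The 3 members it holds are the 3 with an unadjusted p under 0.05 here. The test behind the list is not given in the sources used here.

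Summed over the 7 genes, family transcripts were higher in high uptake, mainly through EFEMP2. The sum was 107.1, 113.0 and 104.3 TPM in high replicates 2, 3 and 4 and 75.0, 84.5 and 85.7 TPM in low replicates 2, 3 and 4. The groups did not overlap (108.1 ± 4.42 against 81.7 ± 5.86 TPM, mean ± SD, n = 3 each, exact two-sided permutation p = 0.1, the smallest 3 against 3 can give). EFEMP2 supplied 74.3% to 82.2% of the family's TPM in every library. HMCN1 supplied 4.002%, 3.03% and 3.31% in high replicates 2, 3 and 4 and 1.83%, 1.62% and 1.43% in low replicates 2, 3 and 4 (exact two-sided permutation p = 0.1). FBLN1 supplied 3.87% to 5.97% in high uptake and 7.30% to 8.37% in low uptake. The shares of FBLN1 and HMCN1 were closer to each other in high uptake than in low uptake. Because its transcript is so long, HMCN1 drew far more reads than its TPM share: 19.5% to 24.9% of family counts in high uptake and 9.78% to 12.2% in low uptake.

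**Figure D3:**
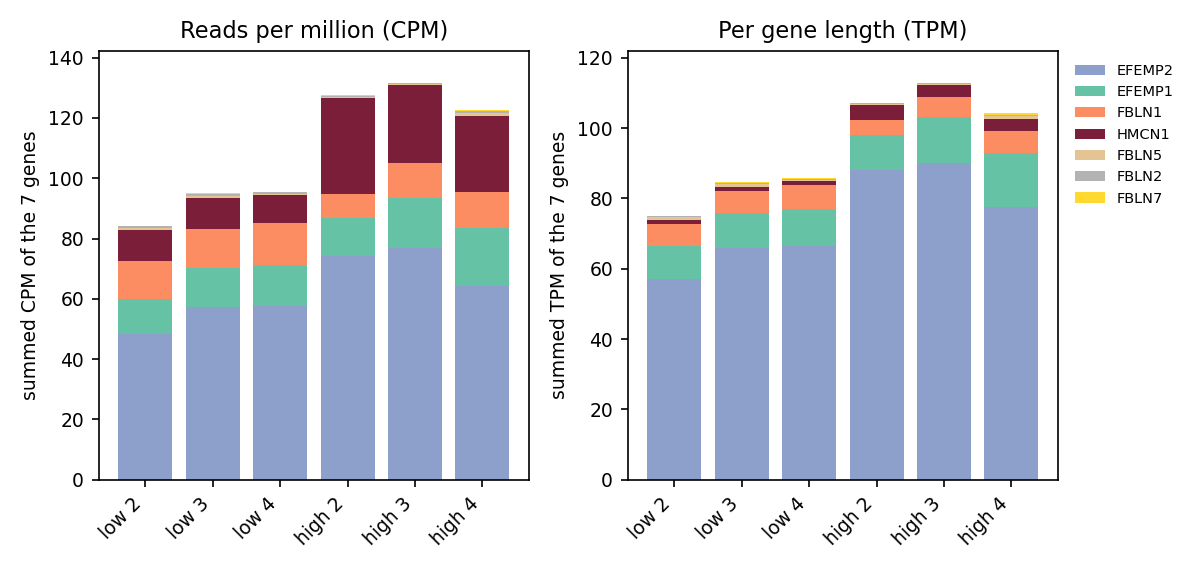
Stacked levels of the 7 genes in each library, as CPM (left) and as TPM (right), with the 3 low-uptake libraries first. EFEMP2 is the largest block in each bar, and HMCN1 is wide in CPM (19.5% to 24.9% of the family in high uptake) but thin in TPM (3.03% to 4.002%).

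Genes whose profile over the 6 libraries was most like that of a member were ranked by Pearson's r of log2 CPM among 13178 other genes of at least 1 CPM on average. These values are descriptions: all libraries of a group share the sort, and 329 genes reached an r over 0.95 with HMCN1. Nearest to HMCN1 were RNF144A and SEMA5A (r = 0.999 each), KIAA0355 and PAPPA (0.997 each) and SMARCA2 (0.996). SEMA5A, a semaphorin, rose by 0.93 and PAPPA, a protease that cleaves insulin-like growth factor binding proteins, by 0.72 on the log2 scale, while RNF144A (0.25), KIAA0355 (0.13) and SMARCA2 (0.25) did not pass. For EFEMP2 the nearest 5 were PDZRN3, ASIC1, ADAMTSL1, SMPD1 and CYB561A3 (r from 0.993 to 0.999). EFEMP1 had 20 genes over 0.95, led by SOX9 (0.991), a transcription factor of glia and cartilage, then PRSS54, LPPR4, ITPRIPL2 and ETS2. FBLN1 had 73, led by CHTF8 (0.997), then TUFT1, PVRL1, EPB41L4A-AS1 and FAM86B3P.

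The known partners of the family were grouped into 7 lists of 68 genes, of which 52 were tested. Of these, 18 rose, 1 fell and 33 did not pass, with a median log2 fold change of 0.31 against -0.0038 for all tested genes, where 3.03% passed as higher and 1.26% as lower. Several of these genes were known to differ when the lists were made.

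Elastic fibre genes, the partners of EFEMP2 and FBLN5, were mixed. Of 12 tested elastin and microfibril genes, FBN1 and MFAP4 rose, FBN2 fell and 9 did not pass (median log2 0.18). FBN1, the main microfibril protein fibrillin-1, stood at 720.2, 664 and 613 CPM in high replicates 2, 3 and 4 and at 336, 338 and 345 CPM in low replicates 2, 3 and 4. Its groups lay far apart, and FBN1 rose by 0.97 on the log2 scale (SE 0.0770, adjusted p = 1.53e-04 in edgeR). FBN2, its relative known from development, fell by 0.61 (16.0 ± 0.936 against 24.4 ± 1.70 CPM, mean ± SD, n = 3 each, adjusted p = 0.00642 in edgeR). MFAP4, a microfibril-associated protein, rose by 1.02. ELN, which encodes elastin itself, was near the limit of detection at 0.485 and 0.360 TPM in high and low uptake and did not pass (log2 0.29, SE 0.364).

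Lysyl oxidases, the enzymes that cross-link elastin and collagen, were higher, at 3 of 4 tested genes (median log2 0.87). LOX, which EFEMP2 carries to elastin, stood at 233, 192 and 212 CPM in high replicates 2, 3 and 4 and at 106, 117 and 131 CPM in low replicates 2, 3 and 4. The groups did not overlap, and LOX rose by 0.85 (SE 0.0999, adjusted p = 0.00123 in edgeR). LOXL1, the partner of FBLN5, rose by 0.89 and LOXL2 by 0.92, and LOXL3 did not pass (log2 0.34, adjusted p = 0.0904 in edgeR).

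Among basement membrane and fibronectin ligands, 6 of 16 tested genes rose and none fell (median log2 0.38). FN1, to which FBLN1 and FBLN2 bind, stood at 1811 TPM in high uptake and 499 TPM in low uptake and rose by 1.82 (SE 0.0883, adjusted p = 2.68e-06 in edgeR). The laminin chains LAMA4, LAMA2 and LAMC1 rose by 1.12, 0.85 and 0.52, perlecan (HSPG2) by 0.76 and nidogen-2 (NID2), which shares a beta-barrel module with hemicentins, by 0.76. Of the collagens of basement membranes, COL4A1, COL4A2, COL15A1 and COL18A1, none passed. COL4A1 stood at 1.49 (SE 0.428, adjusted p = 0.0801 in edgeR) on 7 to 42 counts per library, without overlap of the groups. In edgeR it passed without a filter, with a replicate block, with the GC trend removed and without high replicate 2 or both libraries numbered 2. It did not pass in DESeq2 or limma, or with the length trend alone removed. COL4A2 (0.47) did not overlap either, while COL15A1 (-0.22) and COL18A1 (-0.22) did. Without the gene length trend HSPG2 did not pass (0.60, adjusted p = 0.0654 in edgeR).

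Lecticans, the hyaluronan-binding proteoglycans that FBLN1 and FBLN2 bind, gave 1 call in 2 tested genes. VCAN (versican) rose by 0.42 (453 ± 39.7 against 338 ± 19.8 CPM, mean ± SD, n = 3 each, adjusted p = 0.0182 in edgeR), while the brain lectican BCAN did not pass (log2 -0.52, adjusted p = 0.202 in edgeR). ACAN and NCAN were too low to test. The VCAN call was lost with the length trend removed (0.28, adjusted p = 0.0534) and when high replicate 2 or either of low replicates 3 and 4 was left out (adjusted p up to 0.0965).

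Integrin subunits that bind FBLN5 or fibronectin rose at 3 of 5 tested genes (median log2 0.36). ITGA4 rose by 0.56, ITGB3 by 0.45 and ITGB1 by 0.36, and ITGAV (0.32) and ITGB5 (-0.05) did not pass. The ITGB1 call (adjusted p = 0.0464 in edgeR) was lost when any of 4 libraries was left out, high replicates 2 and 4 and low replicates 3 and 4 (adjusted p up to 0.175), with upper quartile scaling (0.0521), with library size alone (0.0709) and after correction for gene length (0.0604). ITGA4 lost its call when any of the same 4 libraries was left out (adjusted p up to 0.107), and ITGB3 without low replicate 4 (0.0659).

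Of the proteases and inhibitors that act with fibulins, 3 of 5 tested genes rose (median log2 0.38). ADAMTS4 rose by 1.43, HTRA1, a serine protease that cleaves fibulins, by 0.61, and ADAMTS1, for which FBLN1 is a cofactor, by 0.38. TIMP3, the metalloprotease inhibitor that binds EFEMP1, varied by replicate number more than by group, at 25.6, 44.8 and 60.8 CPM in high replicates 2, 3 and 4 and at 20.9, 40.0 and 46.2 CPM in low replicates 2, 3 and 4. In both groups the library numbered 2 was lowest, and TIMP3 did not pass (log2 0.30, SE 0.444). Within each number the high-uptake library stood above the low-uptake one. With a replicate block TIMP3 passed in edgeR, as 1 of 31 partner genes and 3176 genes in all. It also passed with the block and the length trend removed together. The ADAMTS1 call (adjusted p = 0.0335 in edgeR) was lost when any library other than high replicate 3 was left out (adjusted p up to 0.0882) and after correction for gene length (0.0663).

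Notch genes, listed because EFEMP1 is known to activate the pathway, gave 0 calls in 8 tested genes in edgeR (median log2 0.09), with 1 at an unadjusted p under 0.05. That gene, the receptor NOTCH3, stood at 28.6, 32.1 and 32.5 CPM in high replicates 2, 3 and 4 and at 16.2, 24.0 and 24.0 CPM in low replicates 2, 3 and 4. Its groups did not overlap, and the estimate of 0.55 on the log2 scale (SE 0.143) just missed the threshold (adjusted p = 0.0572 in edgeR). DESeq2 (0.00710) and limma (0.0485, 4.40% of all tested genes called) placed NOTCH3 past the threshold, as did edgeR without a filter (0.00486), after correction for GC content (0.00109) and without both libraries numbered 2 (0.00902). After correction for gene length NOTCH3 stood at 0.46 and did not pass (adjusted p = 0.158 in edgeR). Nor did it pass with any 1 library left out (0.0638 to 0.177). The receptors NOTCH1 (-0.23) and NOTCH2 (0.10) and the ligands JAG1 (0.06) and JAG2 (0.32) did not pass. Nor did the targets HES1 (0.21), HEY1 (0.09) and HEY2 (-0.29). With a replicate block NOTCH1 and HES1 passed in edgeR, and NOTCH1 also passed after correction for GC content.

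**Figure D4:**
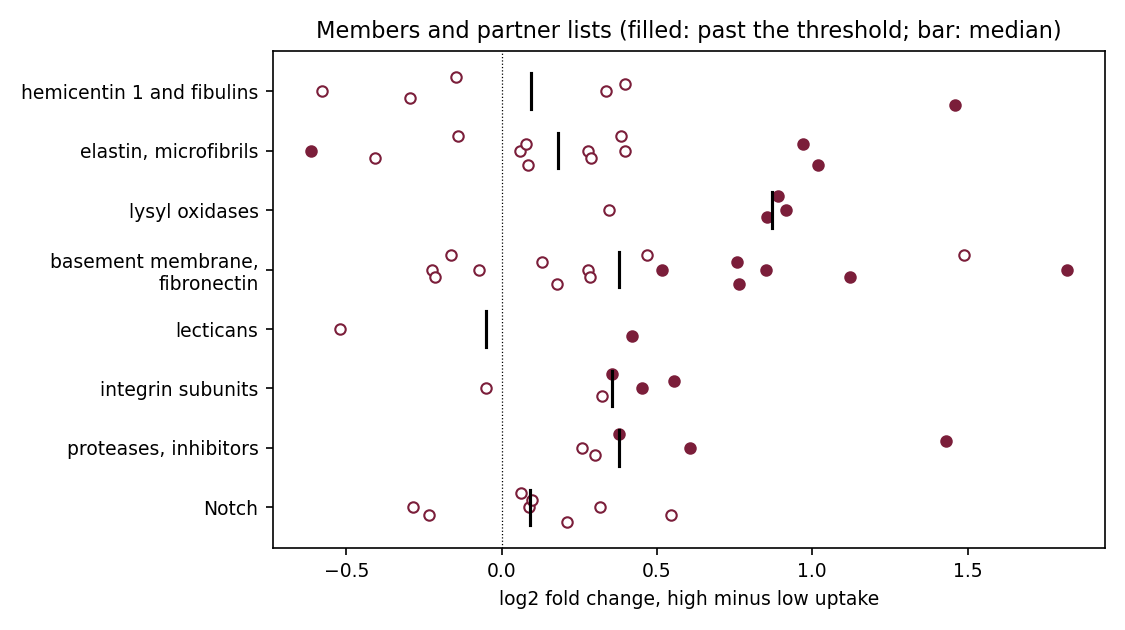
Log2 fold change of every tested gene in the family and its 7 partner lists, with filled points past an adjusted p of 0.05 in edgeR and a bar at each list's median. Lysyl oxidases have the highest median, 0.87, and the Notch list has no filled point.

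Of the 5 tested fibroblast and mural cell markers, LUM and PDGFRB rose (0.85 and 0.83 on the log2 scale). The other 3, PDGFRA (0.52), ACTA2 (0.48) and RGS5 (-0.19), did not pass. The defining gene DCN was near 0, with 1 to 20 counts per library. Of 4 neuronal markers SNAP25 rose by 0.80, and RBFOX3 (0.24), GAP43 (-0.02) and SYP (-0.47) did not pass. Their sum was 38.2 to 51.2 TPM in high uptake and 29.7 to 33.3 TPM in low uptake. That difference lay mainly in SNAP25 (28.5 against 16.2 TPM on average), while GAP43 was level (14.3 against 14.4 TPM). No endothelial (3 tested), immune (1), epithelial (1), glial (3) or mesenchymal glioma (5) marker passed in edgeR, with 1, 0, 0, 0 and 3 at an unadjusted p under 0.05. The part of these markers in the results for HMCN1 and its partners was not tested.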

How the data were processed

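Whole-number read counts per gene symbol, FPKM and TPM were deposited by the authors for each of 6 libraries, per the file headers. The submitters' processing notes name fastp, STAR, featureCounts and genome build hg19. The extract protocol in the labels gives a directional library kit. No source used here gives the annotation or the strand setting. Gene-model lengths came from the deposited counts and FPKM. A list of gene symbols was deposited too, with no values. All columns of per-sample values could be assigned.

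Counts were tested with edgeR 4.0.16 (R 4.3.3): filterByExpr at its defaults (minimum count 10, total 15), TMM, a robust quasi-likelihood F-test without covariates, two-sided, with Benjamini-Hochberg adjustment over all 14598 genes and a threshold of 0.05. CPM values are scaled by TMM, and log2 CPM used a prior count of 2. The SE is the log2 fold change divided by the square root of F, and intervals use the moderated degrees of freedom. Precision follows the counts, from 13712263 to 40742857 per library. The authors' deposited TPM values were used to rank and add genes. Alternatives were other scalings, filters and tests (DESeq2 1.42.0, limma 3.58.1), removal of gene length or GC trends (GC from GENCODE 29, found for 92.8% of tested genes), a replicate block and left-out libraries. The code was tested on simulated data. Members and lists were chosen with earlier results of these data known. Named genes are the members, HMCN2, every partner gene past the threshold, in lists with none the gene of smallest p, and the 5 genes most alike to each member of at least 1 CPM; other partner and marker genes were named after their values were seen.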

Additional observations from a re-analysis of the deposited data

How the results depend on the processing

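HMCN1 kept its direction and its call under all 18 alternatives, with log2 fold changes from 1.27 to 1.53 and adjusted p up to 0.00166. Leaving out 1 library at a time left 1 member called each time, between 14 and 20 partner genes, log2 values of 1.34 to 1.53 for HMCN1 and of -0.83 to 0.18 for FBLN5, and 232 to 738 genes in all, against 626. FBLN5 changed sign when high replicate 2 (0.18), low replicate 2 (0.04) or both libraries numbered 2 (0.41) were left out. Without both, EFEMP1 passed (0.44), which made 2 members called. EFEMP2 passed without a filter (0.40), in DESeq2 (0.395), with the gene length trend removed (0.42) and with the GC trend removed (0.41), which made 2 members called in each. With the GC trend removed 30 partner genes passed and 2687 genes in all, 56.1% of them higher against 70.6% as tested. Same-numbered libraries deviated together with correlations of 0.452, 0.304 and 0.0873 for numbers 2, 3 and 4, and 5 of 6 libraries correlated best with their own number, a hint of pairing from the data. The labels do not say what a number marks, and the correlation for number 4 was under the 0.1 set for every pair, so the test without a block was kept. With a replicate block 4 members passed in edgeR: HMCN1, EFEMP1 (0.31), EFEMP2 (0.40) and FBLN1 (-0.32), with 31 partner genes and 3176 genes in all, 55.4% of them higher; LOXL1 did not pass (adjusted p = 0.117), and HMCN2 (0.00145) and NOTCH3 (4.87e-06) did. Together with the length trend removed, the block gave 4 members, EFEMP1 at 0.31, EFEMP2 at 0.43 and FBLN1 at -0.36, with 30 partner genes and 2810 in all, 51.9% of them higher. The cause of these shifts was not tested. FBLN2 and FBLN5 had too few counts for the filter of 50 counts in 3 libraries, and FBLN7 had an adjusted p only without a filter. Family and HMCN1 shares kept their direction in FPKM, in counts and without any library.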
